A study of Mus musculus with 50 samples.

Results

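The deposited probe identifiers RTS0081029, RTS0063348, RTS0076158, RTS0064439 and RTS0066800 are described here, 5 members out of 20175 identifiers analysed. They were chosen for the CPM (counts scaled to a common library total) differences between the SP-C mutant and wild type sections in these same data, so those differences are given as a description with no test. All 5 members had counts in each of the 4 sections. In air, RTS0081029 had at most 2 counts in any segment, under the floor of 3 counts used here. None of the 20175 identifiers matched a gene name in the reference tables used here, so the members carry no gene name, role or sequence, and lists of lung cell type genes could not be evaluated.

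The samples were 48 tissue segments and 2 no-template controls from mouse lung, profiled with GeoMx. In this assay a stained tissue section is divided into drawn regions, and barcodes released from RNA probes in each region are counted by sequencing. The old mutant section came from a lung labelled SP-CI73T mutant, aged 80 weeks and exposed to ozone at 0.8 ppm for 3 h. The young mutant section was labelled SP-CI73T mutant, aged 12 weeks, with the same ozone exposure. The wild type ozone section was SP-C wild type, aged 12 weeks, with that exposure too. All 3 ozone lungs were taken 72 h after exposure. The wild type air section was SP-C wild type, aged 12 weeks, and kept in filtered air. Old and young mutant sections had 3 injured and 3 peri-injured regions each. The wild type ozone section had 4 of each, and the air section had 4 regions labelled healthy. Every region gave a CD68+ segment, the macrophage gate within CD45+ cells, and a CD45- segment, the nucleated non-immune cells.

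Each section stands for 1 animal, and regions of a section share that animal. Both mutant sections lay on 1 slide and 1 plate and both wild type sections on another slide and plate, so genotype, plate, slide and animal cannot be told apart. There was no mutant section in air and no old wild type section. Air segments were grouped by their titles and time point, although their treatment label names ozone. The genotype of the old lung is taken from its sample labels alone. What drives the mutant allele, the sex of the animals and how regions were called injured are not given in the sources used here.

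Alveolar type 2 cells make surfactant protein C (SP-C). They are the secretory and progenitor cells of the alveolus, and the protein helps lower surface tension. The I73T substitution is a known cause of interstitial lung disease through misrouting of the precursor protein. Inhaled ozone injures the airway and alveolar lining and is followed by macrophage recruitment. CD68 marks macrophages and CD45 marks leukocytes in general.

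Total counts per segment were 20043 to 101968 in CD68+ segments and 32705 to 300708 in CD45- segments. They spanned 20043 to 210491 on the mutant plate and 24253 to 300708 on the wild type plate. The no-template controls held 4 and 229 counts, of which 0 and 1 belonged to the members. Levels below are CPM on TMM-scaled library sizes, with the SD between regions of 1 section.

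RTS0081029 and RTS0063348, 2 of the 5 identifiers, separated both mutant sections from both wild type sections. In each segment type, all 12 mutant regions were above all 12 wild type regions for both of them. On total counts with no scaling factors this held for 11 of 12 mutant regions for RTS0063348 in CD68+ segments. The other 3 went against the description of the set. RTS0064439 and RTS0066800 were high in the wild type ozone section while the wild type air section lay near the mutant levels. RTS0076158 was as high in CD45- segments of the air section as in those of the mutant sections.

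RTS0081029 was close to all-or-none across the 48 segments. In CD68+ segments of the old mutant section it had 1405, 976 and 608 CPM in injured regions and 1169, 776 and 1060 CPM in peri-injured regions. The young mutant section had 1953, 922 and 978 CPM in injured and 785, 877 and 789 CPM in peri-injured regions. In the wild type ozone section it had 18.1, 18.9, 0 and 33.6 CPM in injured and 0, 0, 38.9 and 0 CPM in peri-injured regions, and in the air section 36.6, 44.5, 0 and 22.7 CPM. Every mutant CD68+ value was thus far above every wild type one, and no wild type CD68+ segment held more than 2 counts.

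In CD45- segments RTS0081029 had 1222, 1121 and 1426 CPM in injured and 1242, 912 and 751 CPM in peri-injured regions of the old mutant section. In the young mutant section it had 1525, 1741 and 1024 CPM in injured and 980, 1083 and 971 CPM in peri-injured regions. The wild type ozone section had 7.72, 20.7, 20.7 and 32.5 CPM in injured and 18.7, 0, 10.5 and 42.5 CPM in peri-injured regions, and the air section 45.1, 0, 0 and 0 CPM. The groups again did not overlap. Over both segment types the lowest of the 24 mutant values was 608 CPM, from 21 counts, and the highest of the 24 wild type values was 45.1 CPM, from 2 counts. In 9 of the 24 wild type segments it had 0 counts.

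The folds of RTS0081029 rest on few wild type counts, so they are given with exact 95% counting intervals. These intervals cover counting error within these sections and not variation between animals. The old mutant section held 352 counts in CD68+ segments against 6 in the wild type ozone section, a depth-corrected ratio of 79.8 (36.3 to 219). The young mutant section held 261 against 6, a ratio of 84.1 (38.1 to 231). In CD45- segments the ratios to wild type ozone were 63.5 (40.3 to 106) for the old and 71.1 (45.3 to 119) for the young mutant section. The ratios of the old and the young mutant section share the same few wild type counts. The overlap of their intervals is therefore not read as likeness of the mutant sections. Against air, with 5 CD68+ counts, the ratios were 38.0 (16.1 to 118) and 40.0 (16.9 to 124) for the old and the young mutant section. With only 2 CD45- counts in air, the ratios of 109 (30.0 to 902) and 122 (33.7 to 1009) have wide intervals. The lowest bound of these 8 intervals was 16.1.

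Old and young mutant sections lay close together in RTS0081029. The old to young ratio was 0.948 (0.806 to 1.12) in CD68+ segments. It was 0.893 in CD45- segments, with an interval from 0.805 to just under 1. Wild type ozone and air could not be separated at this depth, with an ozone to air ratio of 0.476 (0.121 to 1.97) in CD68+ and 1.72 (0.414 to 15.2) in CD45- segments. By mean CPM the identifier ranked 21 to 32 among the 20175 in the mutant sections, taking segment types separately, and no higher than 11611 in the wild type sections. These ranks are of probe counts and were not corrected for differences between probes.

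RTS0063348 was also higher in both mutant sections, but by less, and with a wide range inside the young mutant section. In CD68+ segments the old mutant section had 680, 595 and 1187 CPM in injured and 485, 657 and 515 CPM in peri-injured regions. The young mutant section had 3139, 1572 and 5091 CPM in injured and 887, 614 and 609 CPM in peri-injured regions. In CD68+ segments of the wild type ozone section it had 54.3, 246, 161 and 168 CPM in injured and 259, 134, 117 and 139 CPM in peri-injured regions, and in air 384, 467, 293 and 318 CPM. The lowest mutant value, 485 CPM, was just above the highest air value, 467 CPM. On total counts with no factors this order turned, with 488 CPM in that mutant region and 500.2 CPM in air.

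In CD45- segments RTS0063348 had 527, 471 and 441 CPM in injured and 528, 327 and 418 CPM in peri-injured regions of the old mutant section. The young mutant section had 1500, 1234 and 996 CPM in injured and 448, 308 and 280 CPM in peri-injured regions. Wild type ozone ranged over 37.4 to 179 CPM with a median of 99.6 CPM, and air had 90.1, 171, 199 and 75.2 CPM. The 3 injured regions of the young mutant section stood above every other CD45- segment, and mutant and wild type values did not overlap. Ratios to wild type ozone were 4.04 (3.09 to 5.34) for old and 13.1 (10.2 to 17.0) for young mutant CD68+ segments, and 4.37 (3.47 to 5.54) and 7.96 (6.51 to 9.82) for CD45- segments. The old mutant to air ratio in CD68+ segments was the smallest, at 1.77 (1.34 to 2.37).

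**Figure D1:**
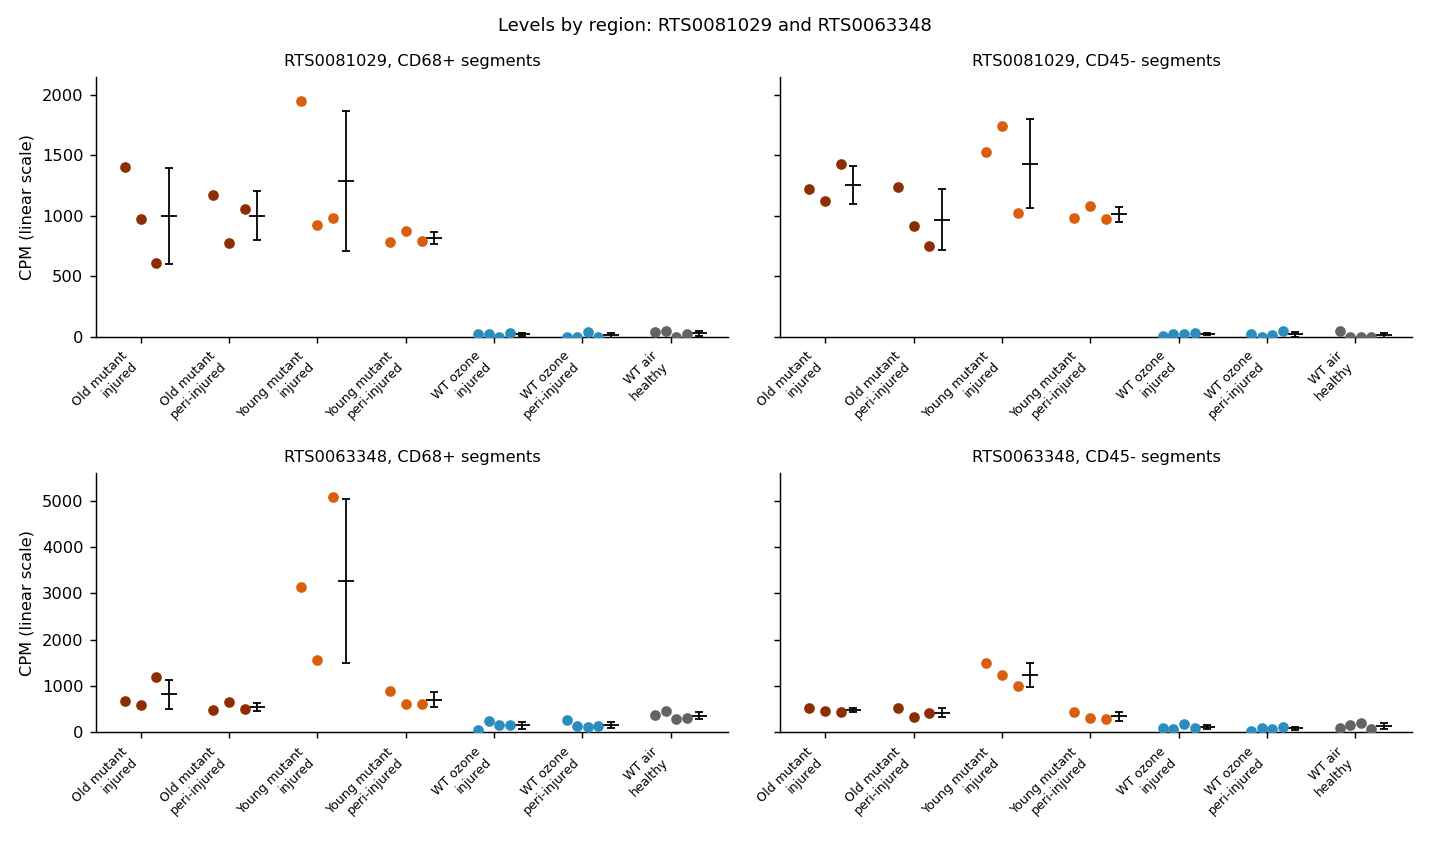
CPM on a linear axis for RTS0081029 (top) and RTS0063348 (bottom) in CD68+ (left) and CD45- (right) segments, 1 point per region, with the mean and SD between regions of a group beside the points. RTS0081029 lay between 608 and 1953 CPM in all mutant segments and at most at 45.1 CPM in wild type ones, and RTS0063348 reached 5091 CPM in an injured young mutant region.

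RTS0076158 was highest in injured regions of the young mutant section and did not follow genotype. In CD68+ segments of the old mutant section it had 836, 643 and 348 CPM in injured and 419, 318 and 324 CPM in peri-injured regions. The young mutant section had 2409, 1230 and 2232 CPM in injured regions but 205, 234 and 316 CPM in peri-injured regions. Wild type ozone CD68+ segments ranged from 75.6 to 299 CPM with a median of 112 CPM, and air CD68+ segments had 201, 356, 322 and 431 CPM. Peri-injured regions of the young mutant section thus overlapped both wild type sections.

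In CD45- segments RTS0076158 averaged 679 ± 222 CPM in the old mutant section (SD, 6 regions) and 734 ± 320 CPM in the young mutant section (6 regions). It averaged 320 ± 44.5 CPM in wild type ozone (8 regions) and 665 ± 142 CPM in air (4 regions). Air CD45- segments thus lay among the mutant ones, and the wild type ozone mean was below the other 3 means. The ratio to air was 1.00 (0.817 to 1.24) for the old and 1.14 (0.944 to 1.39) for the young mutant section, with intervals for counting error only. The ratio to wild type ozone was 2.19 (1.88 to 2.56) for the old and 2.50 (2.18 to 2.86) for the young mutant section. Wild type ozone CD45- segments were also below all 4 air segments, with an ozone to air ratio of 0.458 (0.372 to 0.566).

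RTS0064439 and RTS0066800 were high in the wild type ozone section. In CD45- segments RTS0064439 ranged from 271 to 516 CPM with a median of 409 CPM in the old mutant section, and from 114 to 324 CPM with a median of 166 CPM in the young mutant section. It had 1335, 1143, 1254 and 941 CPM in injured and 1413, 1479, 1128 and 1030 CPM in peri-injured wild type ozone regions, against 135, 266, 253 and 251 CPM in air. All 8 wild type ozone CD45- segments were above all 16 CD45- segments of the other sections. In CD68+ segments this held for 6 of 8, with 194 to 613 CPM in wild type ozone against 29.2 to 262 CPM in the other sections.

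RTS0066800 ranged from 68.8 to 238 CPM with a median of 148 CPM in old mutant CD45- segments, and from 10.0 to 262 CPM with a median of 107 CPM in young mutant ones. It had 652, 592, 544 and 600 CPM in injured and 543, 592, 538 and 467 CPM in peri-injured CD45- segments of wild type ozone, against 67.6, 38.0, 72.4 and 75.2 CPM in air. Again all 8 wild type ozone CD45- segments were above the other 16. In CD68+ segments 7 of 8 were above the others, with 233 to 803 CPM in wild type ozone. The young mutant CD68+ values came from 11 counts in all, and its injured region 1 had 0 counts, where 3 counts would have been 54.8 CPM.

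Set against the air section of the same genotype, slide and plate, these 2 identifiers were several-fold higher in wild type ozone. The ozone to air ratio of RTS0064439 was 2.73 (1.80 to 4.29) in CD68+ and 5.36 (3.97 to 7.41) in CD45- segments. For RTS0066800 it was 4.34 (2.64 to 7.61) in CD68+ and 9.29 (5.28 to 18.1) in CD45- segments. In CD45- segments the old mutant to air ratio was 1.80 (1.29 to 2.55) for RTS0064439 and 2.42 (1.31 to 4.90) for RTS0066800. The young mutant to air ratio there was 0.895 (0.639 to 1.28) for RTS0064439 and 2.08 (1.14 to 4.16) for RTS0066800. In CD68+ segments the old mutant to air ratio was 1.43 (0.900 to 2.34) for RTS0064439 and 1.17 (0.645 to 2.22) for RTS0066800. The young mutant to air ratio in CD68+ segments was 0.502 (0.255 to 0.960) for RTS0064439 and 0.496 (0.210 to 1.12) for RTS0066800. These intervals cover counting error in sums over regions and leave out the spread between regions, so none is read as a test. Young mutant CD45- regions of RTS0066800, at 10.0 to 262 CPM, overlapped those of air, at 38.0 to 75.2 CPM. The mean log2 difference there was 0.37, with an SD of 0.85 within sections. In bulk segments such as these, fewer cells of a type and less RNA per cell cannot be told apart.

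**Figure D2:**
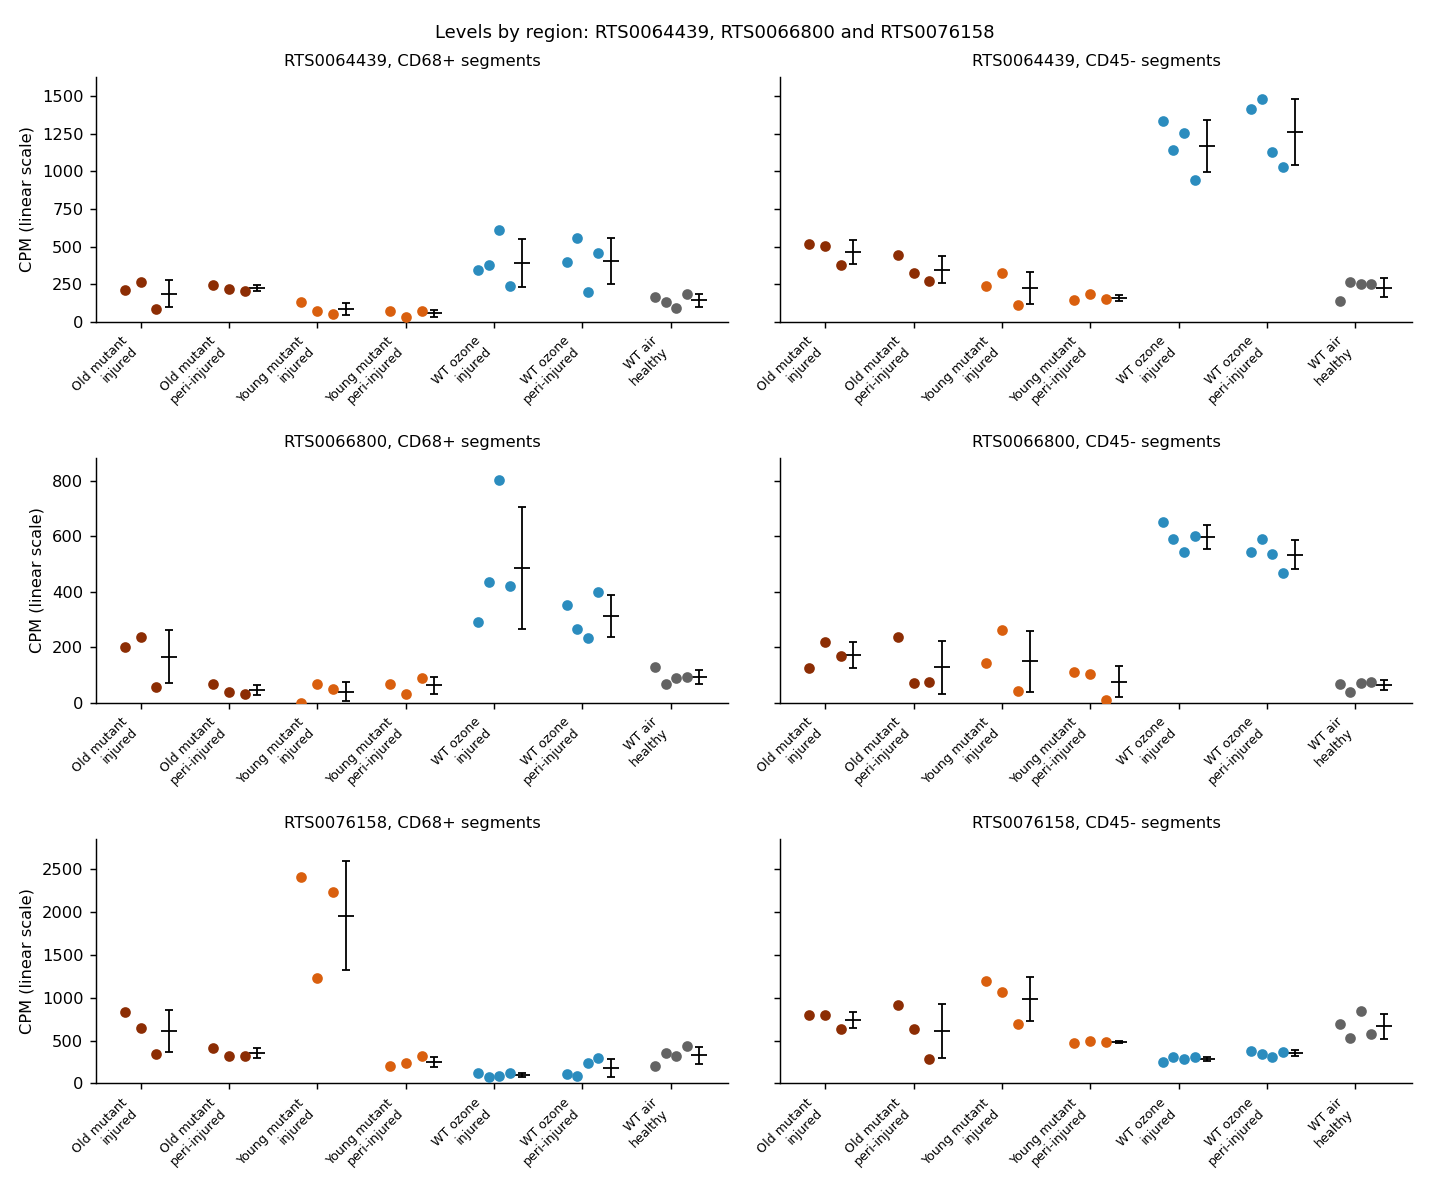
CPM on a linear axis for RTS0064439, RTS0066800 and RTS0076158 (top to bottom) in CD68+ (left) and CD45- (right) segments, 1 point per region, with the mean and SD between regions of a group. Wild type ozone CD45- segments stood at 941 to 1479 CPM for RTS0064439 and at 467 to 652 CPM for RTS0066800, apart from the mutant and air segments, while RTS0076158 peaked at 2409 CPM in an injured young mutant region.

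For comparison with all identifiers, section pairs were read with 1 rule. An identifier counted as different when the gap in mean log2 CPM (prior count 2) was 1 or more and no region of 1 side reached into the range of the other. With 1 animal a side this rule describes the sections and is no test. Since the members were chosen on the mutant and wild type differences, nothing is read from their counts in those pairs, and the background shares are printed beside them.

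Old mutant against wild type ozone differed for 3 of 5 members in CD68+ segments, where 3.5% of all kept identifiers did, and for 4 of 5 in CD45- segments, where 2.04% did. Young mutant against wild type ozone differed for 4 of 5 members in CD68+ segments (5.87% of all kept identifiers) and for 5 of 5 in CD45- segments (1.92%). RTS0076158 missed the rule in young mutant CD68+ segments through overlap, at a log2 difference of 2.23 with an SD of 1.12 within sections.

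Against air, 3 members were kept by the filter on low counts in CD68+ segments and 4 in CD45- segments. Old mutant against air differed for 1 of 3 kept members in CD68+ segments (1.68% of all kept identifiers) and for 2 of 4 in CD45- segments (13.5%). Young mutant against air differed for 2 of 3 kept members in CD68+ segments (2.46%) and for 2 of 4 in CD45- segments (4.37%). Those past the rule were RTS0081029 each time and RTS0063348 in all but old mutant CD68+ segments. There the log2 difference of RTS0063348 was 0.82 with no overlap. The comparisons with wild type ozone and with air share the mutant sections.

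With both mutant sections on 1 side and both wild type sections on the other, RTS0081029 and RTS0063348 were the members past the rule in each segment type. With upper quartile factors or total counts RTS0063348 overlapped air in CD68+ segments, and 1 member, 0.323% of all kept identifiers, was past the rule there. With TMM factors they were 2 of 3 kept members in CD68+ segments, where 0.645% of all kept identifiers differed, and 2 of 5 in CD45- segments, where 0.236% did. In CD68+ segments no other identifier differed, but without segments under 50000 counts 22 differed (3.29%), of which 3 were members. That cut removed 4 of 6 old mutant, 5 of 6 young mutant, 3 of 8 wild type ozone and 3 of 4 air CD68+ segments. Without wild type ozone region 9, air region 11 or young mutant region 2, each left out alone, 3 differed. In CD45- segments the remaining one was RTS0067344, at 563 CPM in mutant and 225 CPM in wild type segments on average, named after its values were seen. The log2 differences of RTS0081029 were 4.65 in CD68+ and 4.89 in CD45- segments, and those of RTS0063348 were 2.14 and 2.11. The prior count shrinks differences that rest on few counts, so those of RTS0081029 are smaller than its ratios of summed counts. Its lowest values over 32 alternatives were 2.94 in CD68+ and 3.14 in CD45- segments.

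The 2 remaining pairs share sections with the choice of members. Their values took part in it, including the high wild type ozone values of RTS0064439 and RTS0066800. Nothing is read from the member counts in these pairs either. Old mutant against young mutant differed for 0 of 3 kept members in CD68+ segments, against 0.348% of all kept identifiers, and for 0 of 5 in CD45- segments, against 0.0737%. Among kept members the largest difference in CD68+ segments was -1.10 for RTS0063348 (SD 0.94 within sections). In CD45- segments it was 1.03 for RTS0064439 (SD 0.42), and regions overlapped in both cases. RTS0064439 was not kept in CD68+ segments. Its difference there was 1.30 (SD 0.49), with overlapping regions and 17 counts in all in the young mutant section. Wild type ozone against air differed for 3 of 4 kept members in CD68+ segments, where 10.7% of all kept identifiers did, and for 2 of 4 in CD45- segments, where 6.87% did. The CD68+ members were RTS0064439 and RTS0066800, higher in ozone by 1.29 and 1.77 on the log2 scale, and RTS0063348, at -1.15. In CD45- segments RTS0064439 and RTS0066800 were higher in ozone by 2.32 and 2.75, and RTS0076158, at -0.99 with no overlap, lay just short of the rule. With upper quartile factors or total counts RTS0064439 overlapped air in CD68+ segments. RTS0076158 then passed in CD45- segments, at -1.23 and -1.32 in that order. Both settings gave 2 members in CD68+ and 3 in CD45- segments. The shares of all identifiers depended on the processing too. In CD68+ segments they were 4.82% with upper quartile factors, 17 higher and 6 lower against 46 and 5 with TMM, and 22.4% without segments under 50000 counts. In CD45- segments they were 3.41% with total counts, 51 higher and 11 lower against 121 and 4 with TMM, and 16.6% without segments under 50000 counts. Leaving out segments under 50000 counts removed 3 of 4 air segments of each type and 3 of 8 wild type ozone CD68+ segments.

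**Figure D3:**
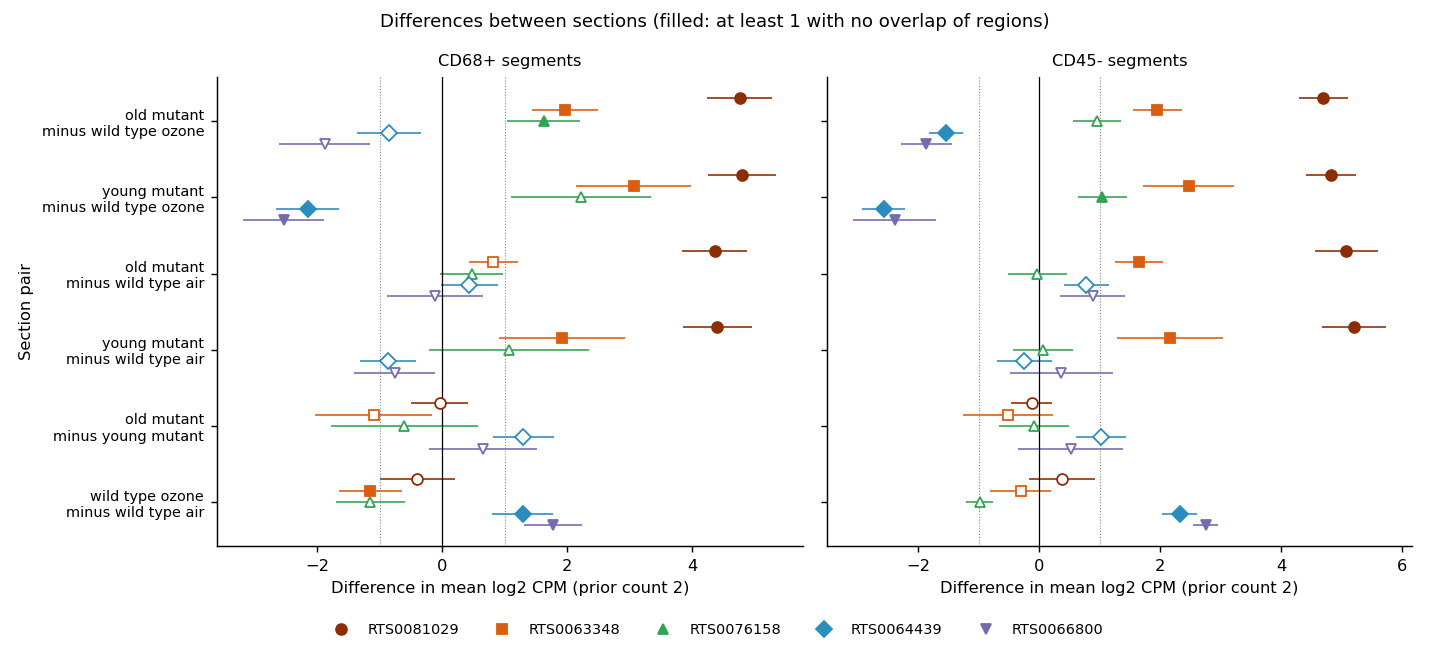
Difference in mean log2 CPM (prior count 2) between 2 sections for the 5 members in CD68+ (left) and CD45- (right) segments; bars are the SD between regions within sections, dotted lines mark 1 and -1, and filled symbols passed the rule. RTS0081029 lay at 4.36 to 5.20 in all mutant against wild type pairs and near 0 in the others, whereas RTS0064439 and RTS0066800 were negative against wild type ozone and positive for wild type ozone against air.

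The members were chosen on differences between mutant and wild type sections and not on the contrast of segment types, which was tested. Values of these same segments took part in the choice. The p-values and member counts for segment type are therefore not fully independent of it. Counts were summed per section and segment type, and the 8 sums were compared with edgeR's quasi-likelihood test with section as a block, adjusted by Benjamini-Hochberg over 14591 identifiers. RTS0063348 was higher in CD68+ than in CD45- segments by 1.22 on the log2 scale (SE 0.19, adjusted p = 0.000129, higher in 4 of 4 sections). Within regions its mean paired difference was 0.53 in the old mutant, 1.11 in the young mutant, 0.51 in the wild type ozone and 1.36 in the air section. RTS0064439 was lower in CD68+ segments, with a log2 fold change of -1.01 (SE 0.19, adjusted p = 0.00103, lower in 4 of 4 sections). Without the wild type ozone section its log2 fold change was -0.80 and did not pass (edgeR adjusted p = 0.0824).

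These 2 of 5 members stood against 2.98% of all identifiers that passed, 274 higher and 161 lower in CD68+ segments. On total counts with no scaling factors the split was 216 higher and 249 lower. The other 3 members did not pass. RTS0081029 had a log2 fold change of 0.21 (edgeR adjusted p = 0.794), RTS0076158 one of -0.17 (0.870) and RTS0066800 one of -0.27 (0.693). With each region as a library and the region as a replicate block, RTS0076158 had a log2 fold change of -0.48 (edgeR adjusted p = 0.00212), in a test over regions that share animals and whose p is therefore too small. Its CD68+ segments were below the CD45- segments in 8 of 8 wild type ozone regions and 4 of 4 air regions, but in 4 of 6 old mutant and 3 of 6 young mutant regions.

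**Figure D4:**
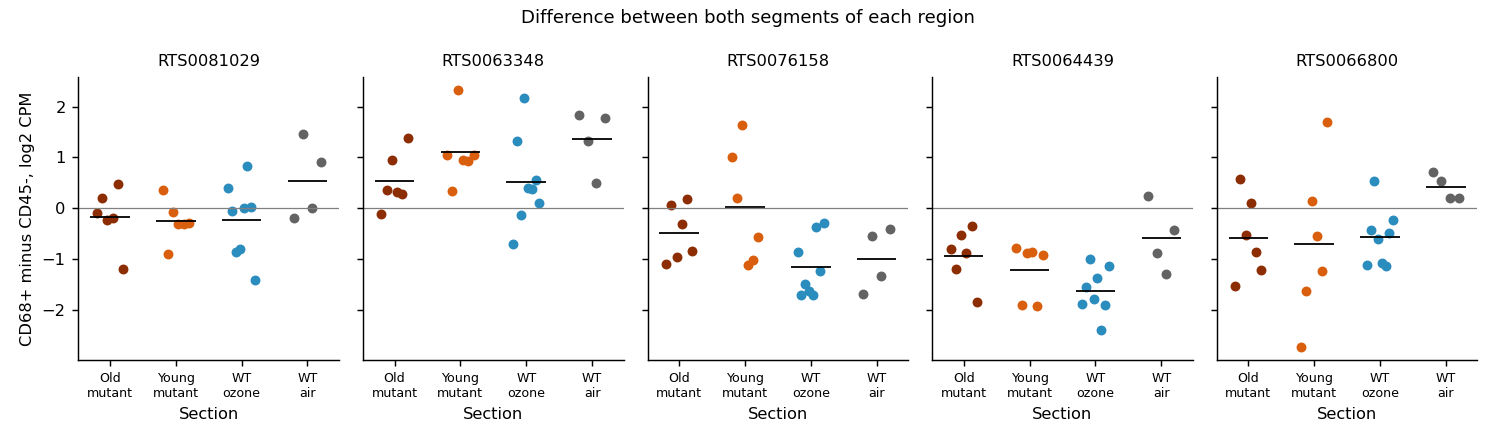
CD68+ minus CD45- difference in log2 CPM (prior count 2) within each region, by section, with 1 point per region and a line at the section mean. RTS0063348 lay mostly above 0 and RTS0064439 mostly below 0 in every section, while the points of RTS0081029 and RTS0066800 lay on both sides.

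Injured and peri-injured regions were compared within the 3 ozone sections, on 6 sums per segment type with section as a block in edgeR's quasi-likelihood test. Values of these sections also took part in the choice of members. The p-values and member counts for injury are therefore not independent of that choice. In CD45- segments RTS0063348 was higher in injured regions by 0.89 on the log2 scale (SE 0.21, adjusted p = 0.0445 over 16703 identifiers, higher in 3 of 3 sections). This was 1 of 5 members, against 0.347% of all identifiers. The call was lost without the young mutant section, where the log2 fold change was 0.21 (edgeR adjusted p = 0.999). It also did not pass with upper quartile factors, total counts, DESeq2 or no filter, at edgeR or DESeq2 adjusted p of 0.0680 to 1.00, and it passed under 8 of 30 alternatives in all. The remaining members had log2 fold changes of 0.25 to 0.47 that did not pass (edgeR adjusted p 0.475 to 0.873).

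In CD68+ segments 0 of 5 members passed, against 0.535% of all identifiers, while 3 of 5 had an unadjusted p under 0.05 in edgeR and 0 of 5 in DESeq2. Of all identifiers, 7.15% had an unadjusted p under 0.05 in edgeR and 0.693% in DESeq2. For RTS0076158 the injured to peri-injured log2 difference was 1.09 (SE 0.33) at an edgeR adjusted p of 0.184. Without the wild type ozone section it was 1.76 and passed (edgeR adjusted p = 0.00734), and without the young mutant section it was 0.25 (0.967). In CD45- segments the difference of RTS0076158, 0.37, likewise became 0.72 when wild type ozone was left out, which passed (edgeR adjusted p = 0.00189), and -0.05 when the young mutant section was left out (0.999). Its value thus rested on which section was left out. For RTS0063348 it was 0.90 (SE 0.26) at an edgeR adjusted p of 0.141. Without segments under 50000 counts the value of RTS0063348 was -0.23 (edgeR adjusted p = 0.922). That cut removed 5 of 6 young mutant CD68+ segments.

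The injury differences of both identifiers were uneven across sections. For RTS0063348 the injured to peri-injured ratio of mean CPM was 1.49 in the old mutant, 4.65 in the young mutant and 0.969 in the wild type ozone section for CD68+ segments, and 1.13, 3.60 and 1.37 for CD45- segments in that order. For RTS0076158 it was 1.72 in the old mutant, 7.78 in the young mutant and 0.560 in the wild type ozone section for CD68+ segments, and 1.22, 2.04 and 0.817 for CD45- segments. In the young mutant section all injured regions were above all peri-injured regions for both identifiers and both segment types, with 3 regions a side. Whether sections differ in the injury difference was not tested, since each section is 1 animal. RTS0081029 had ratios of 0.994 in CD68+ and 1.30 in CD45- segments of the old mutant section, 1.57 and 1.41 in those of the young mutant section and 1.82 and 1.14 in those of wild type ozone, where it had few counts. Its injured regions were also above all peri-injured ones in young mutant CD68+ segments, with a lowest injured value of 922 CPM and a highest peri-injured value of 877 CPM.

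The order of group levels shows the same features. RTS0081029 had its 8 mutant groups first, from 1430 ± 368 CPM in injured CD45- segments of the young mutant section (SD, 3 regions) to 817 ± 52.1 CPM in its peri-injured CD68+ segments. All 6 wild type groups followed at 9.72 to 25.9 CPM, and each overlapped its neighbour. RTS0063348 was led by injured CD68+ segments of the young mutant section, at 3267 ± 1763 CPM, which did not overlap the next group, injured CD45- segments of that section at 1243 ± 252 CPM. RTS0076158 was led by the same group at 1957 ± 636 CPM, again without overlap with the next. RTS0064439 and RTS0066800 were led by both CD45- groups of wild type ozone, at 1262 ± 217 and 1168 ± 171 CPM for RTS0064439 and at 597 ± 44.2 and 535 ± 51.1 CPM for RTS0066800.

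Likeness of pattern was measured as the root mean square difference of centred mean log2 CPM over the 14 groups of section, region type and segment, among 4636 other identifiers of at least 50 CPM on average. The groups share sections and libraries, so these values are descriptions. RTS0081029 had no close match by this measure, in which a difference in the size of 2 patterns also counts. Its nearest was RTS0063348 at 1.49, then RTS0064947 at 1.72, against a size of 2.37 for its own pattern. RTS0063348 was nearest to RTS0064050 (0.60) and RTS0081589 (0.77), and RTS0076158 to RTS0061870 (0.40) and RTS0074528 (0.47). RTS0064439 was nearest to RTS0064440 (0.32) and RTS0070870 (0.37), and RTS0066800 to RTS0077894 (0.44) and RTS0070336 (0.50). RTS0064439 and RTS0066800 differed from each other by 0.61.

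In the young mutant minus wild type ozone differences that underlie the choice, RTS0081029 ranked 1 among the higher identifiers of CD45- segments at 4.82. RTS0076055 ranked 2 at 4.51 with overlapping regions, RTS0063348 ranked 3 at 2.47 and RTS0064927 ranked 4 at 1.57. RTS0076158 ranked 17 at 1.05, close to the rule's limit. Among the lower ones RTS0064439 (-2.57) and RTS0066800 (-2.39) led, followed by RTS0064440 (-2.17), which is no member. In CD68+ segments RTS0076055 led at 5.53 with overlapping regions, followed by RTS0081029 (4.80), RTS0063348 (3.07) and RTS0076158 (2.23). RTS0066800 (-2.53) and RTS0064439 (-2.15) ranked 3 and 7 among the lower ones there.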

How the data were processed

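GeoMx segments of 4 mouse lung sections were measured. The authors deposited counts of probe barcodes, made with GeoMx NGS Pipeline 2.3.4 and with duplicate reads removed by molecular identifier, per the file headers; per the labels' protocols, paraffin sections 6 µm thick and the Mouse Whole Transcriptome Kit were used. Aligner details are not given in the sources used here. Unlisted barcodes were set to 0. Of 20238 identifiers, 63 outside the main number range were left out. Segment areas in the authors' worksheets have no unit and enter no result.

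Members and lists were chosen with earlier results of these data known. Named identifiers were the members, the 2 of most similar pattern for each, and those ranked next to them.

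Identifiers were kept by filterByExpr (minimum count 10), scaled with TMM and tested on section sums with edgeR 4.0.16 in R 4.3.3 (glmQLFTest, two-sided, section as block, called at a Benjamini-Hochberg adjusted p under 0.05). The SE is the log2 fold change over the square root of F. Section pairs used log2 CPM (prior count 2). Ratios of summed counts have exact 95% intervals for counting error only, and the member's counts in both sections set their width. Total counts per segment were 20043 to 300708. A count of 0 was read against a floor of 3 counts, set separately from those intervals. Duplicates were 79.8% to 95.3% of reads. Tests were tried on simulated data, whose outcome is not given here and from which nothing is read.

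Both segments of a region come from 1 animal and region, so region numbers pair them. Their deviations from group means had a median correlation of 0.134 over 24 regions, against -0.0521 for different regions. Replicates were not copies of each other, with a chi-square per degree of freedom of at least 1.13 over 60 pairs. Alternatives were upper quartile factors, total counts, DESeq2 1.42.0, no filter, a prior count of 10, a difference of at least 2, 1 region type alone, regions as libraries, and leaving out RTS0076055, segments under 50000 counts, each section or each region.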

Additional observations from a re-analysis of the deposited data

Results flagged for a closer look

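In 4 of 30 groups of 4 regions, 1 region of a member stood apart from the other regions of its group, by the gap to its nearest neighbour as a share of the group's range. For continuous values chance gives this in about 1 of 20 groups. That rate does not apply to the 2 groups of RTS0081029, where any count in 1 region and 0 in the others gives the largest gap the measure allows. RTS0063348 had 259 CPM in the CD68+ segment of region 5, a peri-injured wild type ozone region, where the other 3 regions had 117 to 139 CPM. RTS0064439 had 135 CPM in CD45- region 8 of the air section, below 251 to 266 CPM in the others. RTS0081029 had 45.1 CPM in the same air segment, from 2 counts, with 0 counts in the others. RTS0081029 also had 38.9 CPM, from 2 counts, in the CD68+ segment of region 7, also peri-injured wild type ozone, with 0 counts in the others.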

How the results depend on the processing

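RTS0063348 was higher in CD68+ than in CD45- segments under all 36 alternatives. For the comparison of segments the count of all identifiers, 435, became 137 with DESeq2, 930 with regions as libraries and 156 without segments under 50000 counts. With the replicate block, which keeps both segments of a region together, it became 847. Leaving out a section or region gave 138 to 494 identifiers and 1 or 2 members, against 2. The lowest values came without the wild type ozone section. For injury in CD45- segments, 1 member and 58 identifiers became 0 and 20 with upper quartile factors, 0 and 16 with total counts and 0 and 1 with DESeq2. No filter gave 0 members, and regions as libraries 27 identifiers. Leaving out a section or region gave 0 to 2 members and 18 to 164 identifiers. For injury in CD68+ segments, 0 members and 17 identifiers became 2 and 52 with no filter and 2 and 28 with regions as libraries. DESeq2 gave 3 identifiers, and 1 was left without segments under 50000 counts. Leaving out a section or region gave 0 to 2 members and 1 to 33 identifiers. P-values over regions, which share animals, are too small. For old against young mutant, 0 members became 3 without segments under 50000 counts, all in CD68+ segments, where 19% of all identifiers then differed against 0.348%. With injured regions alone they became 4, as the shares became 7.29% in CD68+ and 0.768% in CD45- segments, and 0 to 1 with a region left out. For wild type ozone against air, 5 members became 3 with a prior count of 10 (5.45% of all identifiers in CD68+ and 1.98% in CD45- segments) and 2 with a difference of at least 2 (2.1% and 0.66%). They became 7 with injured regions alone (17.6% and 13.9%) and 4 to 6 with a region left out. Leaving out segments under 50000 counts removed 4 of 6 old and 5 of 6 young mutant CD68+ segments. Settings that leave fewer regions a side make no overlap easier to meet. The cause of these changes was not tested. RTS0081029 turned from 0.21 to -0.11 and -0.13 (CD68+ minus CD45-) with regions as libraries, under the section and the replicate block. The replicate block changed no call of a member other than that of RTS0076158. Depth limits RTS0081029 in wild type and RTS0066800 in young mutant CD68+ segments.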
